A study of Mus musculus with 3 samples.

Results

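The genes described here encode proteins that neutrophils and their precursors pack into granules. They were chosen by name: 4 genes of primary granules (Mpo, Elane, Prtn3 and Ctsg) and 6 counted with secondary granules (Lcn2, Ltf, Camp, Ngp, Mmp8 and Mmp9), 10 of the 17742 genes named on the arrays. Each of the 10 was represented by 1 probe, under its current symbol. The arrays measured messenger RNA in cultured mouse acute leukaemia cells of the BXH-2 strain, labelled as bone marrow. BXH-2 is a recombinant inbred strain whose mice develop myeloid leukaemia. The resistant group was 1 array of B117HS, a line selected from its parent by stepwise exposure to rising cytarabine (Ara-C) over about 10 weeks, with an IC50 about 10 times that of the parent. The sensitive group was 2 arrays of that parent, B117P, replicates 1 and 2. Both lines were grown in the same medium, and the labels do not say whether either line is a single clone. Cytarabine is a nucleoside analogue used against acute myeloid leukaemia. The comparison asks how transcripts of a drug-resistant line differ from those of the line it came from.

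Granules form in sequence as a neutrophil matures. Promyelocytes make primary (azurophil) granules, which hold myeloperoxidase and the serine proteases elastase, proteinase 3 and cathepsin G. Myelocytes and metamyelocytes then make secondary (specific) granules with lactoferrin, lipocalin 2 and cathelicidin, followed by tertiary (gelatinase) granules, of which Mmp9 is the usual marker, and the transcription factors PU.1, C/EBP alpha and C/EBP epsilon are known to drive these genes in turn.

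Intensities are given as deposited, and differences are in log2(intensity + 50), resistant minus sensitive, so the change of dim genes is understated. A call required an adjusted p (limma, Benjamini-Hochberg, all genes) under 0.05 and a difference of 1 or more on the log2 scale, with one sign, to both sensitive arrays. The resistant array was the dimmer: its median intensity was 24.9, against 58.4 and 72.5 on the sensitive arrays, and its bright probes (a sensitive mean of at least 500 units) lay at a median log2 ratio of -0.88 to the sensitive mean. Differences were therefore also computed with that shift divided out of every array. The median difference of all genes was -0.33 as deposited and -0.01 after that scaling. Below, "rose" and "fell" are used only of genes called on both scales. Separate cultures are not stated for the sensitive replicates, so the p-values rest on a possibly technical spread between 2 arrays. The variance of the resistant group, with 1 array, was taken as equal to theirs. An exact permutation over 3 arrays could not go below p = 0.333, so none was used, and the number of arrays limits the precision.

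Elane, Ctsg and Lcn2 rose in the resistant cells and Mmp8 fell, while the other 6 granule genes were not called on either scale. As deposited, 3 of the 10 members were called higher, against 5.23% of all genes, and 1 was called lower, against 18.5%. The same 3 and 1 were called after scaling on bright probes, where the shares of all genes were 11.0% and 7.74%. Scaling raises the bright readings of the resistant array, so it asks little more of a rise and much more of a fall. Of the 928 genes called higher as deposited, 925 were also called after scaling, against 1346 of the 3284 called lower. On both scales together the shares of all genes were 5.21% for a rise and 7.59% for a fall. The call of all 4 was lost when a floor of 50 units replaced the offset, where 159 of all genes were called: the differences were 5.18 for Elane, 1.15 for Ctsg, 6.55 for Lcn2 and -2.86 for Mmp8, with limma adjusted p between 0.0624 and 0.104 (4 members had an unadjusted p under 0.05). In RNA from whole cultures, more transcript per cell and a larger share of cells that carry the transcript cannot be told apart.

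**Figure D1:**
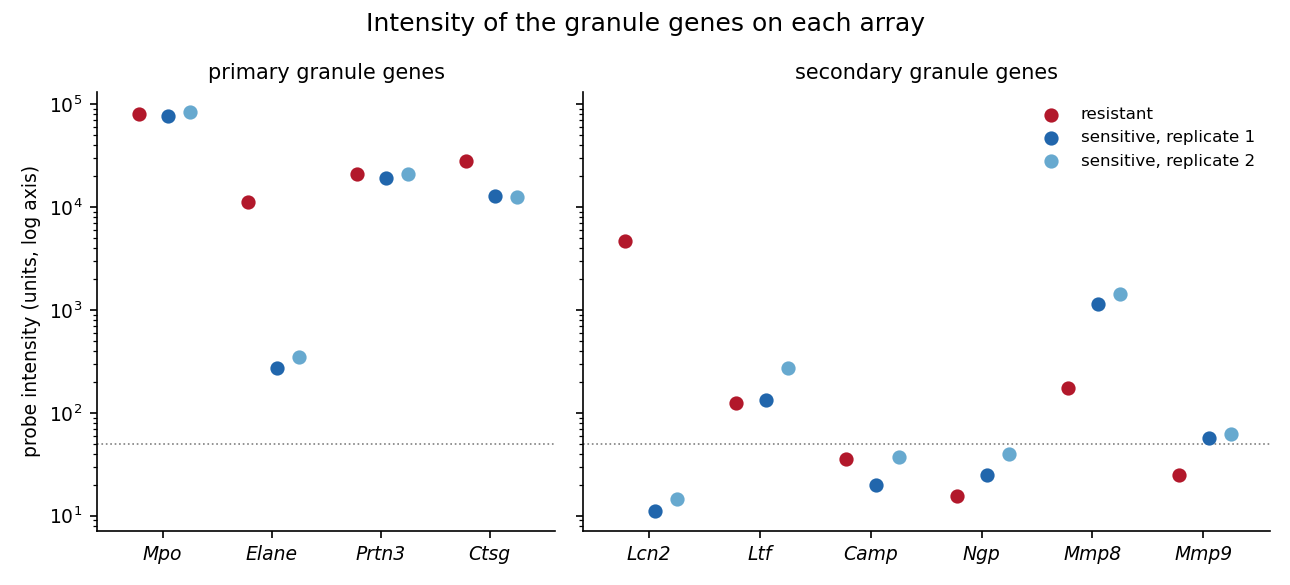
Probe intensity (log axis) of the 4 primary and 6 secondary granule genes on the resistant array (red) and the 2 sensitive arrays (blue), 1 point per array, with a dotted line at 50 units, the offset used before taking logs. The red point stands far above both blue points for Elane and Lcn2 and below both for Mmp8, whereas Mpo and Prtn3 lie level, and heights of different genes cannot be compared because each has its own probe.

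Among the primary granule genes, those of neutrophil elastase and cathepsin G rose, and those of myeloperoxidase and proteinase 3 did not. Elane, which encodes neutrophil elastase, read 11153 units in resistant cells, against 272 and 349.5 units in sensitive cells. The resistant array was 35.9 times the sensitive mean, or 4.96 higher on the log2 scale (SE 0.23, limma adjusted p = 2.13e-08). Scaling on bright probes made the Elane difference 5.84. Elastase degrades matrix and bacterial proteins, and mutations of its human gene cause congenital neutropenia.

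Ctsg, which encodes the chymotrypsin-like protease cathepsin G, read 28196 units in resistant cells, against 12900 and 12593 units in sensitive cells. The resistant value lay above both, and the sensitive arrays differed by far less than this. The Ctsg difference was 1.14 on the log2 scale (SE 0.20, limma adjusted p = 0.000593), 2.21 times the sensitive mean, and 2.02 after scaling. It was the smallest called change of the members, and after quantile normalization (log2 difference 1.08) it missed the size asked.

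Prtn3, which encodes proteinase 3, the autoantigen of granulomatosis with polyangiitis in humans, read 20817 units in resistant cells, against 19231 and 21137 units in sensitive cells. The resistant value lay between the sensitive ones. The Prtn3 difference was 0.05, with a 95% interval of -0.40 to 0.49 and a limma adjusted p of 0.871. After scaling it was 0.93 (interval 0.53 to 1.32, adjusted p = 0.0204), short of the size asked, so whether Prtn3 was level or higher depends on the scaling.

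Mpo encodes myeloperoxidase, which makes hypochlorous acid and marks myeloid leukaemia in diagnosis. It read 80905 units in resistant cells, against 76710 and 84138 units in sensitive cells, and again the resistant value lay between the others. The Mpo difference was 0.01, with a 95% interval of -0.47 to 0.49 (limma adjusted p = 0.975), and it was 0.89 after scaling (adjusted p = 0.0211), without a call. The Mpo reading was 79.5% of the highest deposited value on the resistant array, against 94.3% and 97.4% of the highest on each sensitive array. No saturation flags were used here, and whether a ceiling held down the sensitive readings was not tested.

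**Figure D2:**
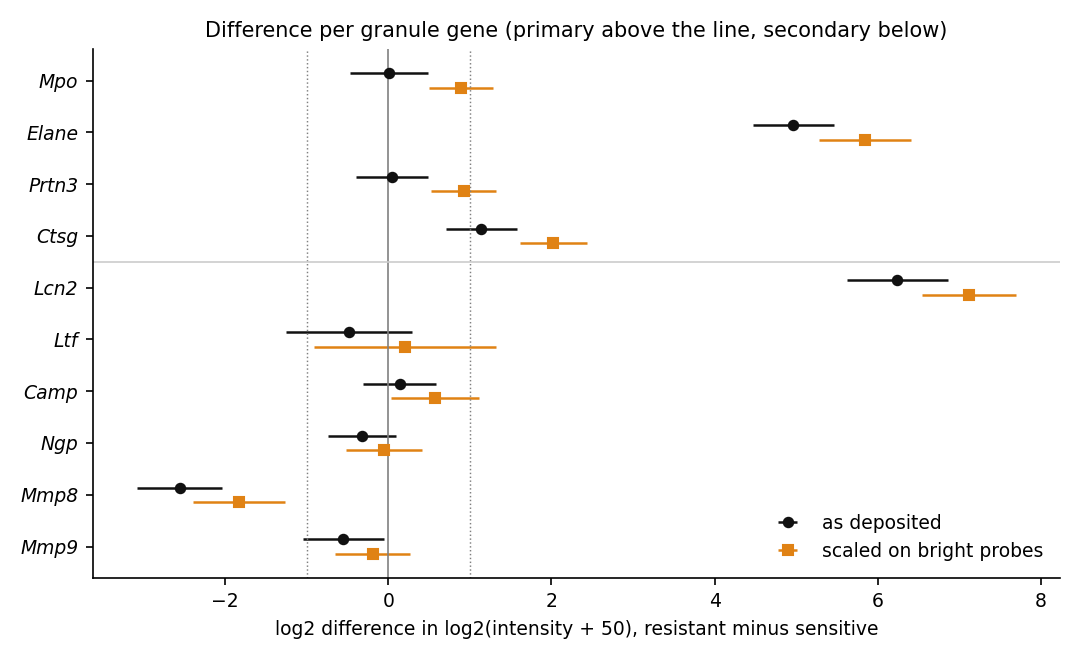
Log2 difference, resistant minus sensitive, of each granule gene as deposited (black circles) and after scaling on bright probes (orange squares), with 95% intervals from limma and dotted lines at the size asked for a call. Elane, Ctsg and Lcn2 lie above 1 and Mmp8 below -1 on both scales, and scaling moves Mpo and Prtn3 from near 0 to 0.89 and 0.93.

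The promoter windows of the 3 serine protease genes are shown because Elane, which rose, and Prtn3, which was not called, lie beside each other on chromosome 10, while Ctsg, which also rose, lies on chromosome 14. The sequences are those of RefSeq for GRCm38.p6 and run from 250 bases before to 50 after the gene's start, 5′ to 3′ on the gene's strand. Such windows were matched for 9 of the 10 members. The window of Elane is at chr10:79886062-79886361 (plus strand), Prtn3 at chr10:79879417-79879716 (plus strand) and Ctsg at chr14:56102525-56102824 (minus strand). Capitals mark matches, on either strand, to 3 short motifs of myeloid transcription factors: GAGGAA for PU.1, TTGCNNA for the start of the C/EBP consensus, and TGTGGT for RUNX factors.
Elane: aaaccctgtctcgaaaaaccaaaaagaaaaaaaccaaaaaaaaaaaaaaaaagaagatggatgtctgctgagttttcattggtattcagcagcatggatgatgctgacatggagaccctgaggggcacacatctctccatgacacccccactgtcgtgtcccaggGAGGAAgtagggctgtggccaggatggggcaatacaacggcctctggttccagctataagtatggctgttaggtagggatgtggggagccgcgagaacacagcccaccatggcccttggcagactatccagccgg
Prtn3: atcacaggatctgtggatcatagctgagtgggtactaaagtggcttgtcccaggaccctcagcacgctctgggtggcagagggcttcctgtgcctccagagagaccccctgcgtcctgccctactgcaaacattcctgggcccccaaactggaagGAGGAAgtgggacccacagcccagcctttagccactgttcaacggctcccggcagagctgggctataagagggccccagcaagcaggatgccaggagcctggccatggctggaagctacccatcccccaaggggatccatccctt
Ctsg: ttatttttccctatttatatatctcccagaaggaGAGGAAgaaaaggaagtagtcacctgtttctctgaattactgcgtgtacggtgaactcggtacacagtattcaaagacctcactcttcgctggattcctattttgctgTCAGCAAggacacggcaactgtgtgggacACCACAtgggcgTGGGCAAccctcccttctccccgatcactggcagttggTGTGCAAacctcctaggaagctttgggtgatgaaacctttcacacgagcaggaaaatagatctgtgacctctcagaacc
The windows of Elane and Prtn3 each hold 1 match, that to the PU.1 letters, 85 bases before the start of Elane and 95 before that of Prtn3. The Ctsg window holds 3 matches to the C/EBP letters, 1 to those of PU.1 and 1 to those of RUNX. A match is a description of the letters and not a binding site. The PU.1 letters occur in 28.3% of all 32851 windows, the C/EBP letters in 37.1% and the RUNX letters in 16.8%. Among the 9 members with a window, 7, 5 and 2 hold them. No 2 of the 20 matches in these windows overlap.

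Among the secondary granule genes, Lcn2 rose, Mmp8 fell, and the readings of Ltf, Camp, Ngp and Mmp9 did not pass the test. Lcn2 encodes lipocalin 2, also called neutrophil gelatinase-associated lipocalin, which starves bacteria of iron by binding their siderophores. It read 4695 units in resistant cells, against 11.2 and 14.5 units in sensitive cells. The resistant array alone stood clear of the low end of the scale. The Lcn2 difference was 6.24 (SE 0.28, limma adjusted p = 1.99e-08) and 7.11 after scaling. Because the sensitive readings lay under the offset, the size of this difference depends on it, with 7.35 at an offset of 16 and 5.41 at one of 100.

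Mmp8 encodes neutrophil collagenase, a metalloproteinase that cleaves fibrillar collagen. It read 176 units in resistant cells, against 1153 and 1417 units in sensitive cells, so the resistant value was below both. The Mmp8 difference was -2.56 (SE 0.24, limma adjusted p = 5.44e-06), with a resistant value 0.137 times the sensitive mean, and it was -1.83 after scaling. Mmp8 thus moved in the direction opposite to Lcn2, with which it is stored in secondary granules.

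Ltf encodes lactoferrin, the iron-binding protein that defines secondary granules. It read 124 units in resistant cells, against 134 and 270.4 units in sensitive cells, where the sensitive arrays differed more from each other than the resistant one did from the nearer of them. The Ltf difference of -0.48 (95% interval -1.25 to 0.29, limma adjusted p = 0.286) became 0.20 after scaling, so its sign is not settled.

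The cathelicidin gene Camp, which encodes the precursor of the antimicrobial peptide CRAMP, read 35.8 units in resistant cells, against 19.9 and 36.9 units in sensitive cells. Ngp, which encodes neutrophilic granule protein, a mouse relative of the cathelicidins, read 15.6 units in resistant cells, against 24.8 and 39.6 units in sensitive cells. Both genes stayed under 50 units on every array, and they differed by 0.14 (limma adjusted p = 0.610) and -0.32 (adjusted p = 0.184). With the offset used, sensitive readings this dim left hardly any room for a lower call, so its absence is uninformative. No flags for background were used here, so neither can be said to be present or absent in either line.

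Mmp9, which encodes gelatinase B, the metalloproteinase of tertiary granules, read 24.9 units in resistant cells, against 57.2 and 62.0 units in sensitive cells. The resistant value was below both, and the difference was -0.55 (95% interval -1.05 to -0.05, limma adjusted p = 0.0664). After scaling it was -0.19 (adjusted p = 0.404).

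The promoter windows of Lcn2 and Mmp8, at chr2:32387690-32387989 (minus strand) and chr9:7558179-7558478 (plus strand), are shown because these are the secondary granule genes that changed, in opposite directions. Capitals have the same meaning as above.
Lcn2: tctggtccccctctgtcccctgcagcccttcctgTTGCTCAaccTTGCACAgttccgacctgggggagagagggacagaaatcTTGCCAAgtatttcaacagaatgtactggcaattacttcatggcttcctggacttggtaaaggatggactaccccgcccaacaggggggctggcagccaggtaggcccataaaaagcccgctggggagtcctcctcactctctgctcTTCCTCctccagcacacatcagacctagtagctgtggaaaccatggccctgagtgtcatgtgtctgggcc
Mmp8: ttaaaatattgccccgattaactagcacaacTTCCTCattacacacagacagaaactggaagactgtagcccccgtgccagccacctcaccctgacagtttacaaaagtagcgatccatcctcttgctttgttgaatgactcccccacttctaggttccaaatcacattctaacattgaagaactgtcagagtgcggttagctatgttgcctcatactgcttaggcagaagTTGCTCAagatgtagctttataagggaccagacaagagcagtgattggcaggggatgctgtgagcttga
The Lcn2 window holds 3 matches to the C/EBP letters, at 216, 206 and 167 bases before the start, and 1 to the PU.1 letters. The Mmp8 window holds 1 match to the letters of each of these factors, with that to the C/EBP letters 19 bases before the start. The gene that rose and the gene that fell thus carry matches to the same letters, at different places and in different numbers.

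Set side by side, the primary granule genes had the higher median difference, but each median hides unlike genes. The median log2 difference was 0.59 over the 4 primary genes and -0.40 over the 6 secondary genes, beside -0.33 over all genes. After scaling on bright probes the medians were 1.47 and 0.07, beside -0.01 over all genes. The primary median exceeded the secondary by 0.99 as deposited and by 1.40 after scaling, and by 0.47 after quantile normalization. Without Elane the gap was 0.45. The means were 1.54 over the primary genes and 0.41 over the secondary genes, the second of which had the opposite sign to its median because of Lcn2. No test was made of this gap, since the members were picked by name with results known.

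By class, 2 of 4 primary genes rose and 0 fell in limma, whereas 1 of 6 secondary genes rose and 1 fell. The shares of all genes were 5.21% and 7.59%. At an unadjusted p under 0.05 as deposited, 2 primary genes were higher and 0 lower, and 1 secondary gene was higher and 2 lower. Of all 17742 genes, 1804 were higher and 7942 lower at that p. Counts in the lists below are to be read beside these values for all genes. The resistant array lay above both sensitive arrays for 3 members, against 20.8% of all genes, and below both for 4 members, against 68.4%, all 4 of them secondary granule genes. Sensitive replicate 2 lay over replicate 1 by a median log2 of 0.13 for the primary and 0.27 for the secondary genes, beside 0.08 for all genes. This is a signed shift, in which opposite signs cancel, and not a measure of spread.

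**Figure D3:**
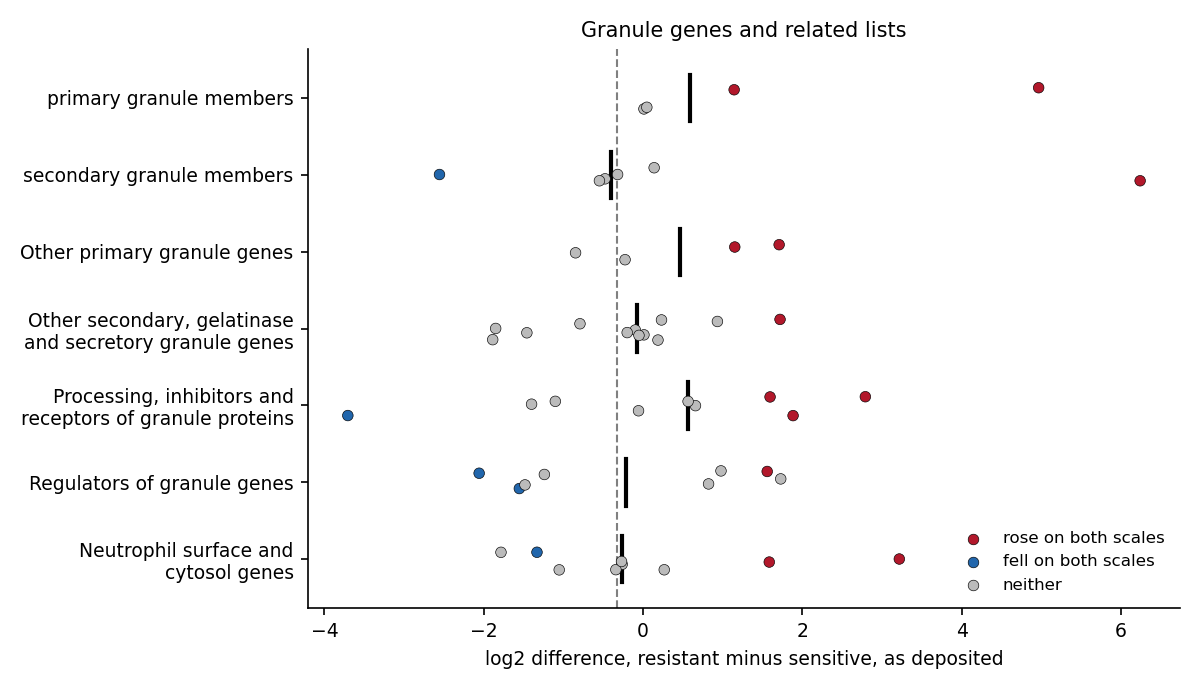
Log2 difference as deposited, resistant minus sensitive, for each measured gene of the granule classes and of 5 related lists (points are spread vertically at random), with a black bar at each list's median and a dashed line at the median of all genes, -0.33. Genes that rose on both scales are red and those that fell are blue, and each list but the primary classes and the other secondary granule genes holds both colours.

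Other primary granule genes followed the same mixed course. Of 7 listed, 4 were measured, of which 2 rose and 0 fell in limma (1 was lower at an unadjusted p under 0.05), with a median difference of 0.46. Srgn, which encodes serglycin, the proteoglycan core that retains proteases in granules, read 23786 units in resistant cells, against 8319 and 6317 units in sensitive cells, a difference of 1.71 (limma adjusted p = 6.21e-05). Cd63, a tetraspanin gene of granule and lysosome membranes, read 80.9 units in resistant cells, against 6.21 and 11.9 units in sensitive cells, a difference of 1.15 that fell short of the size asked with an offset of 100 (0.73). Bpi (bactericidal permeability-increasing protein, -0.23) and the lysosomal glucuronidase gene Gusb (-0.85) were not called. The call of Srgn was lost after quantile normalization (1.72, adjusted p = 0.0601).

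Of 16 other genes of secondary, gelatinase and secretory granules, 12 were measured, and 1 rose and 0 fell on both scales in limma (as deposited, 4 were lower at an unadjusted p under 0.05). Hp, which encodes haptoglobin, a haemoglobin-binding protein that maturing neutrophils also store, read 16069 units in resistant cells, against 3965 and 5926 units in sensitive cells, a difference of 1.72 (limma adjusted p = 0.000123) that lost its call after quantile normalization (1.87, adjusted p = 0.0508). Called lower as deposited only were Itgam, the CD11b integrin gene (-1.89), the sheddase gene Adam8 (-1.85) and Anxa1, the annexin A1 gene (-1.46). These 3 differed between the sensitive arrays themselves, Adam8 with 3525 and 8980 units and 1524 units in resistant cells. Cd177 (0.01) and the olfactomedin gene Olfm4 (0.23) were not called, and 6 of the 12 genes stayed at or under 50 units on all arrays.

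Genes whose products process, inhibit or bind granule proteins included receptors for lipocalin 2 and proteases as well as protease inhibitors. All 9 were measured, of which 3 rose and 1 fell, with a median difference of 0.56. Slc22a17, a proposed receptor for lipocalin 2, rose beside Lcn2, with 898 units in resistant cells, against 84.5 and 89.7 units in sensitive cells (difference 2.79, limma adjusted p = 1.06e-05). Slpi, an inhibitor of elastase and cathepsin G, rose beside both protease genes, with 2172 units in resistant cells, against 514 and 594 units in sensitive cells (difference 1.88). F2rl1, a protease-activated receptor gene, rose by 1.59. Lrp1, an endocytic receptor that clears protease and inhibitor complexes, fell to 21.8 units in resistant cells, against 791 and 995 units in sensitive cells (difference -3.71). Ctsc, whose product dipeptidyl peptidase I activates the granule serine proteases, differed by 0.66, and the elastase inhibitor gene Serpinb1a by 0.56. Neither was called as deposited. Both were called higher after scaling (1.29 and 1.44) and after centring on array medians (1.28 and 1.19).

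The transcription factors of granule genes moved in both directions. Of 9 listed, 8 were measured, of which 1 rose and 2 fell on both scales, while 2 were called higher and 4 lower as deposited. Spi1, which encodes PU.1, fell to 109 units in resistant cells, against 634 and 591 units in sensitive cells (difference -2.06, limma adjusted p = 5.04e-05). Gfi1, a repressor needed for neutrophil rather than monocyte fate, rose, with 834 units in resistant cells, against 241 and 259.8 units in sensitive cells (difference 1.56). Cebpd fell by 1.55, on a probe that read 3.11 units in resistant cells, against 91.9 and 121 units in sensitive cells. It missed the size asked after centring on array medians (mean difference -0.93) and with an offset of 100 (mean difference -0.999). The size is asked from each sensitive array, not of the mean. Cebpb was called higher as deposited (1.73) but not after scaling (2.58, adjusted p = 0.0509), and its sensitive arrays read 188 and 575 units. Cebpa, needed for the step to granulocytes, differed by 0.98, and Cebpe, which drives secondary granule genes, by 0.82. Neither was called as deposited. Both were called higher after scaling (1.83 and 1.27) and after centring on array medians (1.60 and 1.44). Cebpe was also called higher after quantile normalization (1.33) and, as deposited but at an offset of 16, by limma (1.79, adjusted p = 0.00127). With the offset of 50 Cebpe met the adjusted p asked (limma, 0.000638) and missed the size. It stayed under 50 units on every array, with 38.9 units in resistant cells, against 4.97 and -3.96 units in sensitive cells.

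Other neutrophil genes were as divided as the granule genes. Of 10 listed, 9 were measured, of which 2 rose and 1 fell, with a median of -0.27. S100a8, which encodes a calcium-binding protein of the neutrophil cytosol, read 530.4 units in resistant cells, against 17.4 and 7.91 units in sensitive cells (difference 3.22), and the activating receptor gene Trem1 rose by 1.58. Cxcr2, a chemokine receptor gene of mature neutrophils, fell by 1.33 but missed the size asked after quantile normalization (-0.90), centring on array medians (-0.71) and with an offset of 100 (-0.90), and Csf3r, the receptor gene for the granulocyte growth factor G-CSF, was called lower as deposited only (-1.78). S100a9 (-0.26), whose product pairs with that of S100a8, read at most 9.23 units on any array, and the decoy receptor gene Il1r2 (-0.34) was not called either.

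Markers of other blood cells were read on the same arrays. Summed intensities below are as deposited, on a dimmer resistant array, and add probes whose heights cannot be compared. The monocyte and macrophage list moved most: 1 of 9 rose and 5 fell, among them Csf1r (-5.14), Irf8 (-5.10), Mpeg1 (-5.76) and Cx3cr1 (-4.89), while Cd14 (0.61) was called higher after scaling only, and the summed intensity of the list was 10863 in resistant cells, against 28141 and 30298 in sensitive cells. Of 5 leukocyte markers 1 fell, Coro1a (-2.14), and the rest were not called, with 6725 units of Ptprc (CD45) in resistant cells, against 8096 and 8219 units in sensitive cells, and Laptm5 differing by -0.06. The summed intensity of 4 eosinophil genes, whose granule genes include Epx (-0.91) and Prg2 (called lower as deposited only, -1.52) and Prg3 (-0.32, not called), was 115 in resistant cells, against 297 and 624 in sensitive cells. Much of the gap between the 2 sensitive sums came from Il5ra, with 15.6 units in resistant cells, against 13.7 and 245 units in sensitive cells. For 6 mast cell and basophil genes the summed intensity was 4096 in resistant cells, against 4191 and 3875 in sensitive cells. Nearly all of this came from Mcpt8. Cpa3 differed by -0.98, and 0 of the 6 genes were called in limma (2 were lower at an unadjusted p under 0.05).

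The summed intensity of 4 B cell genes was 280.0 in resistant cells, against 1298 and 1394 in sensitive cells, with Ebf1 rising (1.59) and Cd79b falling (-3.88), while Cd79a (-1.15) was called lower as deposited only and Pax5 (-0.38) was not called. Of 4 T cell genes 1 fell, Cd5 (-2.52), Cd3e (-1.08) was not called, and their sum was 104 in resistant cells, against 654 and 542 in sensitive cells. The 2 erythroid genes, Alas2 (-0.09) and Klf1 (-0.28), summed to 52.9 in resistant cells, against 74.5 and 76.5 in sensitive cells. After scaling on bright probes Alas2 and Klf1 differed by 0.21 and 0.14. The 4 megakaryocyte genes, among them Pf4 (0.17) and Ppbp (-0.21), summed to 45.1 in resistant cells, against 130 and 102 in sensitive cells. After that scaling the median differences of the B cell, T cell and megakaryocyte lists were -0.27, -0.45 and -0.29. The markers at or under 10 units on all arrays were Fcer1a and Cd3d. In the eosinophil, mast cell, erythroid and megakaryocyte lists no member changed on both scales in limma (2, 2, 0 and 2 members were lower at an unadjusted p under 0.05), and the part of these cell types in the granule gene differences was not tested.

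The genes beside the granule genes on their chromosomes were also read. This was looked at after the values of the members were seen, taking the 3 nearest measured genes on each side of every member in the GRCm38.p6 gene order. Of 54 such neighbours that are not members, 0 were called higher and 11 lower, against 5.23% and 18.5% of all genes. At an unadjusted p under 0.05 in limma, 4 were higher and 27 lower, against 1804 and 7942 of all 17742 genes. On the scaled intensities 3 neighbours passed as higher and 2 as lower, against 11.0% and 7.74% of all genes. Those higher were 1110008P14Rik beside Lcn2 (1.61), Ccrl2 beside Ltf (1.89) and Pcif1 near Mmp9 (1.06), and those lower were Ptpn23 beside Ngp (-1.46) and Zfp335 beside Mmp9 (-1.05). Prtn3 and Cfd, the complement factor D gene, flank Elane. Cfd read 48.2 units in resistant cells, against 7.45 and 21.1 units in sensitive cells, a difference of 0.62 without a call. The Cfd difference was 1.12 after scaling on bright probes, again without a call. It was called higher after centring on array medians (1.24), so whether Cfd was higher depends on the scaling. Mcpt8, a basophil protease gene next to Ctsg, read 3926 units in resistant cells, against 3848 and 3448 units in sensitive cells, a difference of 0.11 (limma adjusted p = 0.688). Mmp8 lies within a run of metalloproteinase genes, and the 6 nearest of them that were measured read at most 22.4 units on any array, so dim that even a reading of 0 in resistant cells would miss the size asked with the offset used. Ccrl2, a chemokine-binding receptor gene next to Ltf, differed by 1.06 as deposited, where it missed the size asked from sensitive replicate 2 (0.84), and was called higher after scaling on bright probes (limma adjusted p = 0.0170), quantile normalization (1.66) and centring on array medians (1.68).

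**Figure D4:**
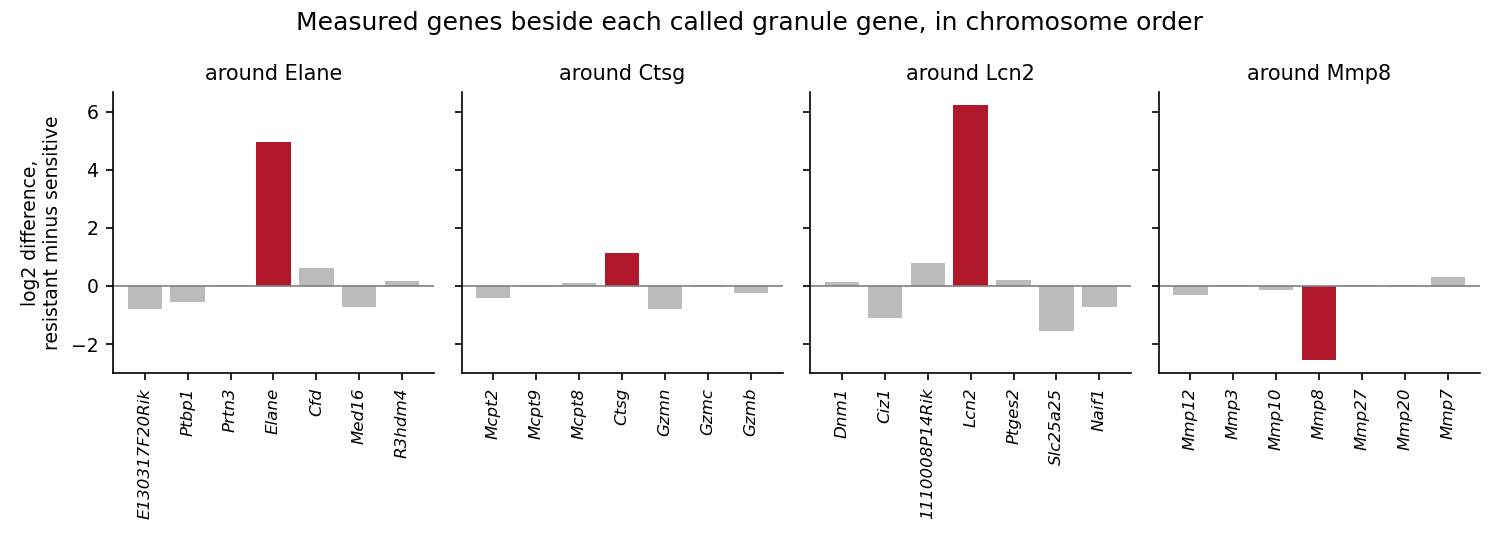
Log2 difference as deposited, resistant minus sensitive, of Elane, Ctsg, Lcn2 and Mmp8 (red bars) and of the 3 nearest measured genes on each side in chromosome order (grey bars). The red bars stand at 4.96, 1.14, 6.24 and -2.56, and every grey bar lies nearer to 0 than the red bar of its member, the farthest standing at -1.56 beside Lcn2.

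The genes most like each called member were found by the Euclidean distance of gene-centred log2(intensity + 50) over the 3 arrays, among 8575 brighter genes. With so few arrays this measures little more than a like difference. Ppt2, B3galt1 and Reep6 were nearest to Elane, at distances of 0.07, 0.09 and 0.10 log2 units. Pgrmc2, Spns1 and Trpm2 were nearest to Ctsg, and Slc16a3, Vat1l and Adamts4 to Lcn2. Emp1, Macir and Tchp were nearest to Mmp8. None of the 10 members was among these 12 genes, which follows from their unlike differences given above and adds nothing to them.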

How the data were processed

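RNA of each line was amplified to amino-allyl antisense RNA and coupled to Cy5, per the labels' protocols. The authors' deposited table holds linear intensity values, which reach below 0 (lowest -23.3 units). The sources used here do not state how they were scanned, background-corrected or scaled. The values lie on steps of 1.56 units on the resistant array and of 1.24 and 1.32 units on the sensitive arrays. Whether a factor per array made these steps was not tested. Of 26423 probes, 20377 carried 1 gene symbol, 0 several and 6046 no symbol. RefSeq's mouse gene table held 18213 of these symbols as current names and 2126 as older ones, with 38 unmatched. A gene was read from its brightest probe by mean.

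The values log2(intensity + 50) of 17742 genes were fitted with limma 3.58.1 under R 4.3.3 (lmFit, then eBayes with a variance trend, 1 residual degree of freedom and a prior of 11.0). The fit was tested on simulated data with the same spread for every gene and no brightness shift between arrays. That test therefore does not cover the dimmer resistant array seen here. The samples were grouped by their titles. The 10 members, the gene lists, the offset and the call rule were chosen with earlier results of these data known. The text names all members and, per list, up to 4 called genes, largest first, and the first 2 uncalled, plus the 3 genes most like each called member. Chromosome neighbours and Il5ra were named after their values were seen. The arrays carry no count of molecules, so their number alone sets the precision. Alternatives were other scalings, offsets, a floor, probe averaging, a filter on dim genes, other variance models and thresholds, and leaving out each sensitive array. With 1 array against 1, no test remained and the size rule alone was used. Protein sequences were not used here. Tables and plots used matplotlib 3.10.9, pandas 2.3.3 and numpy 2.4.6 under Python 3.11.15.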

Additional observations from a re-analysis of the deposited data

How the results depend on the processing

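Elane, Ctsg, Lcn2 and Mmp8 kept their direction in all 16 other settings tried. Their log2 differences ranged from 4.78 to 5.84, 1.08 to 2.02, 5.41 to 7.35 and -2.86 to -1.83. Not all settings could have changed the direction. Other variance models and thresholds, the filter on dim genes and probe averaging (1 probe per member) left these differences as they were. When values under 50 were set to 50 and no offset was added, 0 members were called higher and 0 lower in limma, although 4 had an unadjusted p under 0.05, and 159 of all genes were called. The cause was not tested. Ctsg also lost its call after quantile normalization and when a log2 difference of 2 was asked. Of all genes, 4212 were called as deposited, 2557 after quantile normalization, 6842 when a difference of 0.6 was asked and 1088 when 2 was asked. The split of higher and lower calls was 928 and 3284 as deposited and 1951 and 1374 after scaling on bright probes. It was 1338 and 1219 after quantile normalization and 1697 and 1273 after centring on array medians. Without 1 sensitive replicate, 2 arrays remained and 4733 to 5264 genes passed on size alone.

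The primary granule median (0.59) was 1.47 after scaling on bright probes, 0.54 after quantile normalization, 1.22 after centring on array medians, 0.046 without Elane and 1.54 as a mean. The secondary median (-0.40) was 0.073 after scaling on bright probes, 0.073 after quantile normalization, 0.22 after centring, -0.13 with the floor and 0.41 as a mean. The gap between them (0.99) was 1.40 after scaling on bright probes, 0.47 after quantile normalization, 0.72 with the floor, 0.45 without Elane, and 0.75 to 1.08 without 1 sensitive replicate. With bright probes taken by the mean of 3 arrays, chosen after the data were seen, the primary median, the secondary median and the gap were 1.37, 0.010 and 1.36, and Ltf differed by 0.11, Il1r2 by 0.039, Ptprc by 0.49, Laptm5 by 0.71, Prg3 by 0.080, Alas2 by 0.17 and Klf1 by 0.083.

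Genes without a call changed sign under other scalings. After quantile normalization the differences were -0.19 for Mpo, 0.089 for Ltf, 0.0045 for Ngp, 0.058 for Mmp9, 0.30 for Il1r2, 0.31 for Prg3, 0.32 for Alas2, 0.37 for Klf1 and 0.20 for Pax5. After scaling on bright probes they were 0.20 for Ltf, 0.023 for Gusb, 0.10 for Il1r2, 0.60 for Ptprc, 0.82 for Laptm5, 0.14 for Prg3, 0.21 for Alas2, 0.14 for Klf1 and 0.012 for Ppbp. After centring they were 0.14 for Ltf, 0.30 for Ngp, 0.073 for Mmp9, 0.40 for Bpi, 0.36 for S100a9, 0.28 for Il1r2, 0.35 for Ptprc, 0.56 for Laptm5, 0.30 for Prg3, 0.53 for Alas2, 0.34 for Klf1, 0.41 for Ppbp, 0.24 for Pax5 and 0.41 for Cd3d. With the floor, Camp, Ngp, Bpi, Cd177, Olfm4, Cebpe, S100a9, Alas2, Pf4, Ppbp, Cd3d and Cfd were at it on all arrays and gave no value, as did Bpi, Olfm4, Cebpe, S100a9 and Cd3d without the dimmest 25% of genes. No paired analysis was possible because the resistant group holds 1 array. Readings under 50 units carry the least information here.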
